A study of Oryza sativa with 20 samples.

Results

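The comparison described here set rice shoots after 2 hours of chilling at 10°C against shoots kept for the same time at 29°C. It was read from the 4 columns whose titles give 2 hours, out of 20 columns in all, which hold 2 spot sets on each of 2 slides, and the other 8 slides cover 0.5, 6, 12 and 24 hours. Both groups were S3-stage seedlings of the cultivar CT6748-8-CA-17, a japonica rice that tolerates chilling, and both had been raised in water at 29°C. The study's methods place the chilled seedlings under continuous light and keep the controls alike except for the temperature of 29°C. They take RNA from shoots, while the labels say seedlings only. Each slide carried the cDNA of one independent biological replicate, with the chilled sample labelled with Cy3 and its own control with Cy5. The labels give this orientation for every slide and the design names no swap, so a change shared by slides of one orientation cannot be told apart from a dye effect. The labels alone do not settle whether the values of replicate 2 at 2 hours kept that orientation, as described below. All values below are chilled over control on the log2 scale, with the median of each column set to 0. A value is a property of the whole shoot, in which fewer cells of a type and less RNA per cell cannot be told apart. The table holds ratios only, so the levels of leaf or root marker genes could not be read.

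Rice is a plant of warm climates, and temperatures well above freezing already disturb its membranes, photosynthesis and redox balance. Plants sense cold through calcium signals and protein kinases, which act on transcription factors and, with a delay, on genes for sugars, chaperones and protective proteins. Gibberellin, jasmonate and abscisic acid are the hormones best known for adjusting growth and defence in the cold. The array itself was built largely from a library of cold-stressed rice seedlings from which control cDNA had been subtracted, with a second library from drought, so it favours genes that respond to cold.

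Of 6080 features on the array, 6030 had a value in both replicates at 2 hours. A feature is a spotted cDNA clone, and its gene is the one given by the platform annotation, which lists 1 gene for 4172 features, several for 97 and none for 1811. Only 712 features carry a gene name. Values are therefore given per feature, with the locus number and chromosome of the assigned gene.

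The direction of replicate 2 is not settled by the labels, which name the same dyes for both slides. As deposited, the 2 slides at 2 hours ran against each other, with a Pearson correlation of -0.43 and a Spearman correlation of -0.57 over all features. Replicate 2 was also negatively correlated with each of the 8 slides of the other times (Spearman correlation -0.55 to -0.20), whereas replicate 1 was positively correlated with each of them (0.27 to 0.65). The off-scale values of replicate 2, at 10 or beyond in size, were 2 in number and positive, while the 28 such values in the other 18 columns were all negative. Both columns of replicate 2 were therefore multiplied by -1 here. The likeness of replicate 2 after this step to replicate 1 and to the other times was the reason for it. This likeness therefore does not count as independent support. Each main count at 2 hours is also given with the sign as deposited.

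Replicate 2 also had a common offset and a wider spread. Its medians as deposited were -0.42 and -0.63, whereas the other 18 columns lay between -0.03 and 0.26. The median absolute deviation was 0.27 and 0.26 in the spot sets of replicate 1, and 0.50 and 0.49 in those of replicate 2. The duplicate spots of a slide differed by a median of 0.11 in replicate 1 and 0.18 in replicate 2, on the log2 scale. Between the replicates the median difference was 0.34, the Spearman correlation after the sign was turned was 0.566, and 4345 of 6030 features (72.1%) had one sign in both. The plot of the replicates shows this spread for all features.

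**Figure D1:**
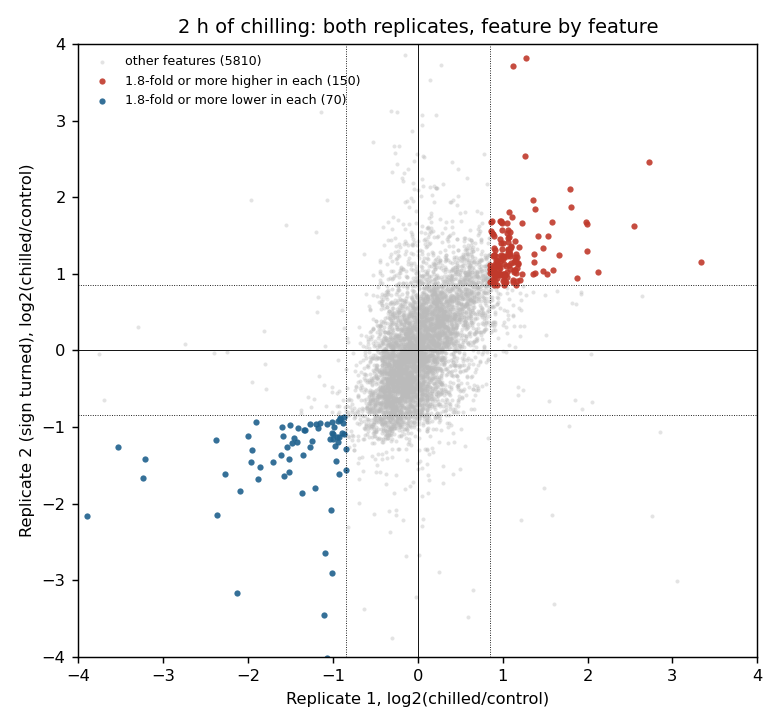
Log2 ratio of chilled over control shoots at 2 hours in replicate 1 (horizontal axis) and in replicate 2 with its sign turned (vertical axis), 1 point per feature, with dotted lines at 1.8-fold. Red points (150) are higher and blue points (70) lower by 1.8-fold in each replicate, and 18 features lie outside the axes, which end at 4 in size.

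Different features assigned to the same gene gave a further check of the measurement, because they are separate spots of separate clones. Among 294 genes with more than 1 feature there were 333 pairs of features, and 174 pairs (52.3%) had the same sign at 2 hours. Over all features 3039 of 6030 were above 0 by the mean, so 2 unrelated features would share a sign about as often as not. The share of 52.3% is near that. Their values differed by a median of 0.47. Of 26 such genes with a feature past 1.8-fold in each replicate, 15 had one sign in all their features. The share of pairs with one sign was 54.8% at 0.5 hours and, in the order of the later times, 58.4% at 6, 56.6% at 12 and 57.1% at 24 hours. Why features of one gene differ was not tested, and it limits what the value of a single feature says about its gene.

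**Figure D2:**
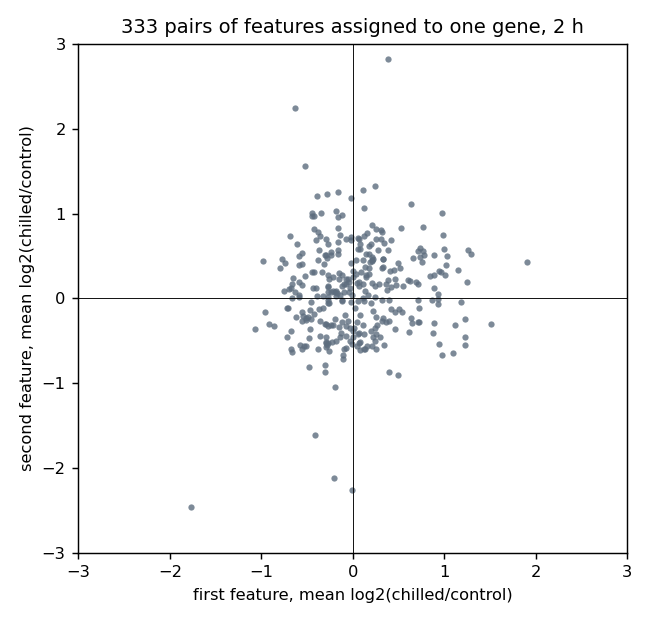
Mean log2 ratio of chilled over control shoots at 2 hours for 333 pairs of features that the annotation assigns to the same gene, with one feature on each axis. The points spread to all sides of the origin, and in 174 pairs both features have the same sign.

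By the fold rule of the study, 1.8, applied to the mean of both replicates, 417 features (6.92%) were higher and 155 (2.57%) lower in chilled than in control shoots. When each replicate had to reach 1.8-fold on its own, 150 features (2.49%) were higher and 70 (1.16%) lower. Of the 150 higher features, 144 had one sign in all 4 spots and 17 had a gene name, and of the 70 lower features, 56 had one sign in all 4 spots and 8 had a name. A spot was missing in 5 of the 150 and in 11 of the 70, and these were not counted as having one sign in all 4. Without any fold limit, 2212 features (36.7%) were above 0 and 2130 (35.3%) below 0 in both replicates. Higher features made up 68.2% of those past 1.8-fold in each replicate. Without the centring, which moved the median of all features to 0.31, the counts were 311 higher and 25 lower, so that higher features made up 92.6%, and by the mean rule there were 1019 and 73 (93.3% higher, against 72.9% with the centring). With the sign of replicate 2 as deposited, only 11 features were higher and 5 lower in each replicate, none of them among the 150 or the 70, and the mean rule gave 53 and 86. In replicate 2 alone 802 features were higher and 506 lower by 1.8-fold, compared with 251 and 123 in replicate 1 alone.

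No feature passed limma's moderated test with Benjamini-Hochberg adjustment at 0.05, in either direction (0.0% of 5926 features). At an unadjusted p of 0.05 the test gave 938 features (15.8%), of which 589 were higher and 349 lower. The median standard error of a mean was 0.30 on the log2 scale. The lowest adjusted p was 0.0711, shared by LSD1, which was lower, and by 2 loci without a name, which were higher. LOC4332013 on chromosome 3 had means of 2.72 in replicate 1 and 2.46 in replicate 2, where its spots read 1.15 and 3.78. LOC4345340 on chromosome 8 had 1.81 and 1.87, with spots of 1.04 and 2.69 in replicate 2. All 4 spots of both loci were above control, and the spots of replicate 2 lay far apart. LOC4333459 on chromosome 3 was the unnamed locus that ranked lowest by the replicate nearer to 0. This ranking covered only features with one sign in all 4 spots and 1.8-fold in each replicate, so other features can have lower means. Its spots read -1.94 and -1.81 in replicate 1 and -1.68 and -1.69 in replicate 2, with an adjusted p of 0.0841. These 3 unnamed loci were chosen after their values had been seen. Because nothing passed the test, the values that follow describe these slides.

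Among named features above control, the gene for the gibberellin receptor GID1 (LOC4338764, chromosome 5) came first. Its ratios were 2.62 and 1.36 in the spots of replicate 1 and 1.56 and 1.02 in those of replicate 2. All 4 spots lay above 1, and the mean was 1.64 ± 0.49 (SD, n = 2), or 3.12-fold, with limma's adjusted p at 0.15. GID1 binds gibberellin and then brings the growth-repressing DELLA protein to degradation. OsSPS3F (LOC4341642, chromosome 6), a sucrose phosphate synthase and so an enzyme of sucrose synthesis, had 1.88 and 1.30 in replicate 1 and 1.34 and 0.76 in replicate 2. Its mean was 1.32 ± 0.38, or 2.50-fold, with an adjusted p of 0.276. MTP8 (LOC4345598, chromosome 8), a metal tolerance protein of the cation diffusion facilitator family, had 1.28 and 0.84 in replicate 1 and 1.63 and 1.30 in replicate 2, with a mean of 1.26 ± 0.29. All 4 spots of each of these 3 genes were above control, and the spots of GID1 in replicate 1 lay further apart than its 2 replicate means.

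BGLU27 (LOC4345995, chromosome 8), a beta-glucosidase, which splits glucose from conjugates, had closely spaced spots at 1.16 and 1.12 in replicate 1 and 1.18 and 1.27 in replicate 2. POLD2 (LOC4331489, chromosome 3), the small subunit of the replicative DNA polymerase delta, had 1.13 and 1.23 in replicate 1 and a mean of 1.15 in replicate 2. Their means were 1.18 ± 0.06 and 1.16 ± 0.02. Another feature near these, osRAD23 (LOC4347014, chromosome 9), belongs to a shuttle protein family that carries ubiquitinated proteins to the proteasome and takes part in DNA repair. It had 1.01 and 1.15 in replicate 1 and 0.93 and 1.29 in replicate 2, and it was not tested because a value at another time was missing. Both named protein arginine methyltransferases were above control, PRMT10 (LOC4340089, chromosome 6) with 1.02, 0.94, 1.40 and 0.98 in the 4 spots and PRMT1 (LOC4346843, chromosome 9) with 1.31, 0.94, 0.99 and 0.84. These enzymes methylate histones and RNA-binding proteins.

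The last features picked for their high values were one of the 2 features of OsPIP2;2 and one of the 2 of HEMB. OsPIP2;2 (LOC4330049, chromosome 2) is an aquaporin of the plasma membrane, a channel for water. Its feature read 1.22 and 0.74 in replicate 1 and 1.19 and 0.77 in replicate 2, a mean of 0.98 ± 0.00, and its other feature had replicate means of 0.47 and 1.03. HEMB (LOC4341997, chromosome 6) encodes aminolevulinate dehydratase, an early step of chlorophyll and heme synthesis, and its feature read 0.97 and 0.93, and 1.15 and 0.86. The other feature of HEMB lay on the opposite side, at -0.57 in replicate 1 and -0.77 in replicate 2, so no direction can be given for that gene.

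The lowest named features were both features of NSHB2 on chromosome 3, a nonsymbiotic hemoglobin, a class of plant protein that binds oxygen very tightly and scavenges nitric oxide. One read -3.29 and -3.19 in replicate 1 and -1.34 and -1.99 in replicate 2, and the other -2.32 and -2.43, and -0.97 and -1.38. All 8 spots were below -0.9, with replicate 1 lower than replicate 2 in both features. The means were -2.45 ± 1.11 and -1.77 ± 0.85 (SD, n = 2), that is 5.48-fold and 3.42-fold lower in chilled shoots, with adjusted p of 0.144 and 0.15. LSD1 (LOC4344713, chromosome 8), a zinc finger protein that restrains cell death, was among the features with the lowest adjusted p. It read -1.33 and -1.39 in replicate 1 and -1.85 and -1.86 in replicate 2, with a mean of -1.61 ± 0.35, while its other feature had only -0.15 and -0.66.

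Features for 2 enzymes of the assimilation of sulfate into cysteine were among those picked for their low values. ATP sulfurylase (LOC4334073, chromosome 3), which activates sulfate, read -1.09 and -1.32 in replicate 1 and -0.93 and -0.99 in replicate 2. The feature CSase (LOC4352839, chromosome 12), a cysteine synthase, which joins sulfide to a serine derivative, read -1.56 and -1.66, and -1.41 and -1.32. The 4 spots of each lay within 0.5 of one another. Their means were -1.08 ± 0.17 and -1.49 ± 0.17, or 2.11-fold and 2.80-fold lower, with adjusted p of 0.243 and 0.113. Another feature, annotated by the study as a plastidic cysteine synthase, had 0.27 in replicate 1 and -0.12 in replicate 2, so the pathway as a whole was not on one side.

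The remaining features picked for their low values act in amino acid synthesis and in signalling. ASA2 on chromosome 3, an anthranilate synthase subunit at the start of tryptophan synthesis, read -1.57 and -1.45 in replicate 1 and -0.64 and -1.30 in replicate 2. The calmodulin-like protein CML1 (LOC4327351, chromosome 1), of a family that senses calcium, read -0.80 and -1.12 in replicate 1, with a mean of -1.45 in replicate 2. JAR1 (LOC4339756, chromosome 5) makes the active jasmonate by joining it to isoleucine, and it read -0.93, -0.85, -1.19 and -0.97. OsPP2C44 (LOC4336940, chromosome 4), a protein phosphatase of type 2C, read -0.84, -0.90, -1.08 and -1.10. In CML1, JAR1 and OsPP2C44 replicate 2 had the lower mean, and in ASA2 replicate 1 did. The plot of the features picked for their high or low values shows all their spots.

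**Figure D3:**
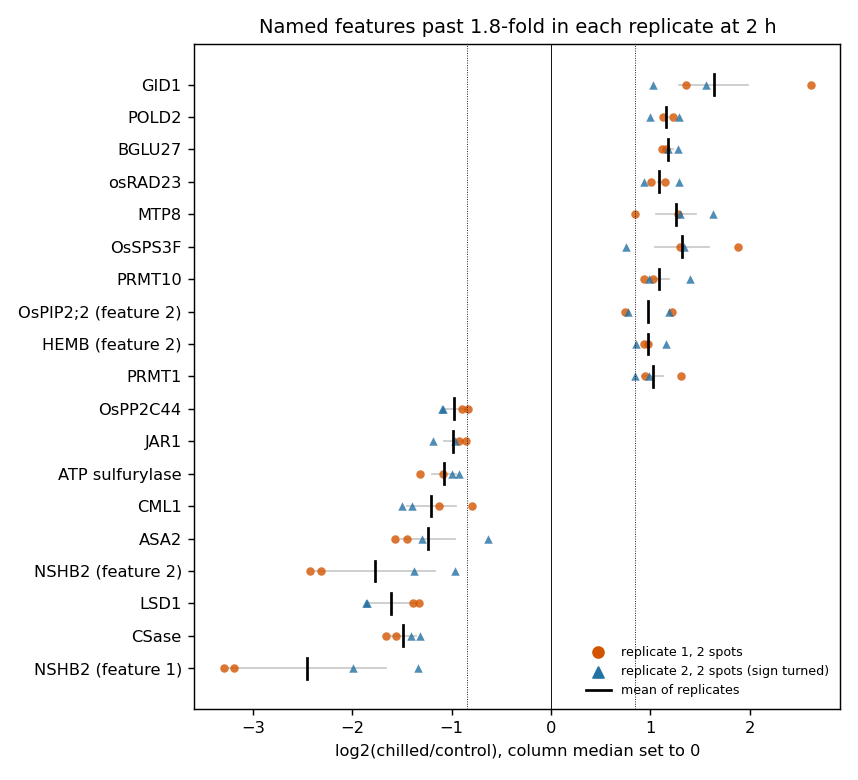
Log2 ratio of chilled over control shoots at 2 hours in the 4 spots of the features picked for their high or low values (circles, replicate 1; triangles, replicate 2 with its sign turned; black bar, mean of both replicates; dotted lines, 1.8-fold). They are up to 10 in each direction, all past 1.8-fold in each replicate. COI2, KIN12C, MPK16, PDC and RBP-208 also had a named feature past 1.8-fold in each replicate and are not drawn. NSHB2 lies lowest, with means of -2.45 and -1.77, and GID1 highest, with 1.64.

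For 5 of these features the sign as deposited would turn the mean round to the other side by no more than 0.20 in size, namely BGLU27 (-0.042), HEMB (-0.027), MTP8 (-0.20), PRMT10 (-0.10) and osRAD23 (-0.016). It would put CML1, JAR1, LSD1 and OsPP2C44 above 0. With that sign GID1 and NSHB2 would keep their direction, because replicate 1 was the larger in size in both.

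Among genes named from the gene lists below, COI2, PDC, TPI and CAT-B each had 2 features of one locus that disagreed. The jasmonate receptor COI2 had means of 0.94 and -0.54, pyruvate decarboxylase (PDC), the entry to alcohol fermentation, 1.20 and -0.40 (and -0.49 in a feature of a second PDC locus), triosephosphate isomerase (TPI), a glycolytic enzyme, -0.99 and 0.44, and the catalase CAT-B -0.67 and 0.13. In other genes both features stood on one side. The auxin response factor ARF3 had 0.87 and 0.21, BGLU19 0.84 and 0.77, the flowering regulator Ehd3 1.01 and 0.39, an alpha-tubulin (TubA) 0.77 and 0.51, and the clock gene CCA1 0.45 and 0.33. In every one of these pairs the feature named first was chosen for its larger value.

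The values at 2 hours were set beside those of the other times in the same way. By the mean rule, 451 features (7.55%) were higher and 183 (3.06%) lower at 0.5 hours. At 6 hours there were 369 (6.16%) and 37 (0.617%). At 12 hours 449 (7.49%) were higher and 152 (2.54%) lower, and at 24 hours 583 (9.73%) and 152 (2.54%). Of the features higher by 1.8-fold in each replicate at 2 hours that had a value at the other time, 104 of 146 were also past 1.8-fold at 0.5 hours (71.2%, and 23.1% of the 0.5 hour features). At 6 hours it was 95 of 149 (63.8%, and 25.7% of the 6 hour features), at 12 hours 36 of 150 (24.0%, and 8.02%) and at 24 hours 71 of 149 (47.7%, and 12.2%). The labels name the same dyes for all these slides, and the part of the dyes in the overlap was not tested. Replicate 2 was turned partly because it ran against these slides. The overlaps of higher features, and those of lower features below, are therefore not independent support. They are not given with the sign as deposited, where none of the same features was past 1.8-fold in each replicate.

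The lower features of 2 hours were set beside the other times in the same way. At 0.5 hours 32 of 64 were also lower by 1.8-fold (17.5% of the 0.5 hour features), and at 6 hours 3 of 67 (4.48%, and 8.11%). The counts were 15 of 62 at 12 hours (24.2%, and 9.87%) and 15 of 66 at 24 hours (22.7%, and 9.87%), against 2.54% of all features at each of these times. At 0.5, 6, 12 and 24 hours in turn, the 70 lower features had medians of -0.84, -0.06, -0.29 and -0.40, whereas the 150 higher features had 1.04, 0.98, 0.63 and 0.81.

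Single features followed different courses. GID1 had replicate values of 2.41 and 1.77 at 0.5 hours, 1.99 and 1.29 at 2 hours, 1.49 and 2.52 at 6 hours, 0.86 and 0.80 at 12 hours and 0.23 and 1.56 at 24 hours, above 0 throughout. OsSPS3F had its largest values at 0.5 hours, with 4.89 and 3.79, and at 12 hours its replicates fell on either side of 0, with -1.02 and 1.27. CSase had -1.34 and -1.17 at 0.5 hours and -1.61 and -1.36 at 2 hours, then 0.21 and 0.74 at 6 hours, -0.58 and 0.57 at 12 hours and -0.19 and 0.02 at 24 hours. Both replicates of CSase were below 0 at 0.5 and 2 hours only.

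ATP sulfurylase also changed side, with -1.51 and -0.43 at 0.5 hours and -1.20 and -0.96 at 2 hours, but 0.44 and 2.13 at 6 hours, 0.93 and 1.63 at 12 hours and 1.14 and 0.29 at 24 hours. LSD1 had -1.04 and -1.01 at 0.5 hours, -1.36 and -1.86 at 2 hours, -0.50 and -0.21 at 6 hours, -0.01 and 0.13 at 12 hours and -0.61 and -0.84 at 24 hours. The lower feature of NSHB2 was at -1.15 and -2.58 at 0.5 hours and -3.24 and -1.67 at 2 hours, and its replicates stood on either side of 0 at 12 hours, with -1.35 and 0.59.

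**Figure D4:**
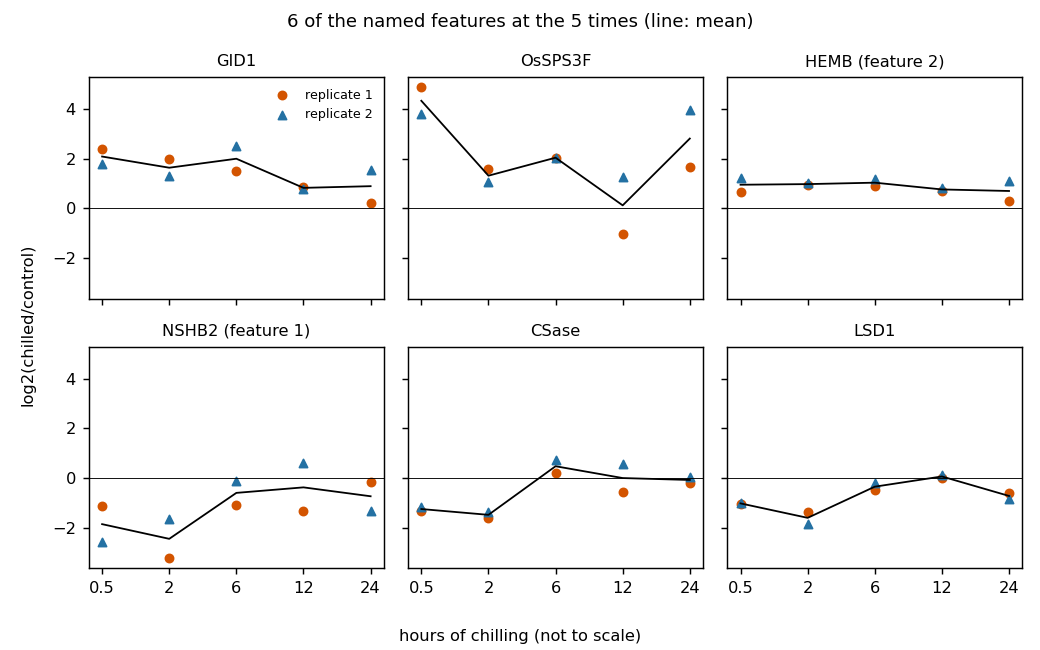
Log2 ratio of chilled over control shoots for 6 of the named features at the 5 times from 0.5 to 24 hours (circles, replicate 1; triangles, replicate 2, sign turned at 2 hours; line, mean; time axis not to scale). CSase and LSD1 have their lowest means at 2 hours, and GID1 is above 0 in every sample.

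The difference of 2 hours from each other time was tested in the same limma model. Against 0.5, 6 and 24 hours no feature passed in either direction (0.0%), with lowest adjusted p of 0.9988, 0.9971 and 0.0655, and 93, 224 and 372 features at an unadjusted p of 0.05. Against 12 hours 1 feature was higher and 1 lower (0.0169% each), with 324 features at an unadjusted p of 0.05. The median standard error of a difference was 0.42. The lower one, LOC4324604 on chromosome 1, was -0.60 and -0.76 at 2 hours, against 2.38 and 2.36 at 12 hours, a difference of -3.04 (SE 0.42, adjusted p 0.0445). The higher one has no gene listed, and its spots at 2 hours did not agree, with 5.85 and -0.57 in replicate 1 and -0.44 and 1.86 in replicate 2, against -2.11 and -3.91 in the replicates at 12 hours. Its difference was 4.69 (SE 0.67, adjusted p 0.0445). For LOC4324604 the adjusted p lay between 0.0458 and 0.35 when any 1 of the 10 samples was left out, and it stayed past the threshold in 3 of these 10 fits, those without replicate 1 of 6 hours or either replicate of 24 hours. It was 0.0541 and 0.35 without replicate 1 and replicate 2 of 2 hours. For the feature with no gene listed it lay between 0.0109 and 0.188 and passed in 3 fits, those without replicate 2 of 2 hours or replicate 1 of 6 or of 12 hours. Both calls were lost with the sign as deposited, where both adjusted p were 0.858.

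The genes that the study followed by quantitative PCR or singled out as transcription factors had mostly small ratios at 2 hours. ROS-bZIP1, a bZIP transcription factor, was at 0.44 in replicate 1 and -0.21 in replicate 2, whose spots read -1.03 and 0.61. The bHLH-type factor was above 0 in both replicates, with 0.63 and 0.45. OsMyb4, a MYB factor known for raising chilling tolerance when overexpressed in Arabidopsis, had 0.10 and -0.11. The features of EREBP1, an ethylene response factor, stood apart from each other, with -0.27 and -0.92 in one and 0.43 and 0.36 in the other. With the centring, the replicates of ROS-bZIP1 and those of OsMyb4 did not share a sign. The centring took 0.42 and 0.63 off the spot sets of replicate 2 after its sign was turned. Without it, the mean of each replicate would be above 0 for both features. The split signs therefore depend on the centring. By quantitative PCR the study found that this bZIP factor peaked early in the chilling.

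Of the other genes in the qPCR set or primer list of the study, the ATP synthase-like feature had 0.71 and 0.29, ferritin, an iron store, 0.24 and 0.15, and the auxin-induced gene IAA3 0.58 and -0.12. DI19-5, of a zinc finger family induced by drought, had -0.67 and -0.94, and the ripening-regulated protein had -0.73 and -0.46. Both replicates of these last 2 features were below 0. The pfkB-type sugar kinase had -0.02 and -0.33, and the HMG chromatin protein 0.00 and -0.38. One anion transporter feature had -0.80 and -0.74 and the other 0.44 and 0.48. ACT2, the actin used by the study as a reference gene, had 0.38 and -0.58.

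The study had sorted its early response genes on these same slides into Group-I, rapid, and Group-II, slow, so both lists are not independent of the values here. Of 19 Group-I features, 17 (89.5%, against 36.7% of all features) were above 0 in both replicates and 0 below 0 in both. With the centring, 0 of them reached 1.8-fold by the mean, but without it 13 of the 19 did, against 16.9% of all features, and their median was 0.93 beside 0.31 over all features. With the centring the median was 0.63, with 0.61 in replicate 1 and 0.51 in replicate 2, beside 0.01 over all features. Examples are the silicon transporter Lsi6 with 0.68 and 0.86, a universal stress protein with 0.56 and 0.87, the regulatory beta subunit of the kinase CK2 with 0.64 and 0.73, and AMY3E, an alpha-amylase that degrades starch, with 0.59 and 0.66. The one feature with a mean below 0 was a GDP dissociation inhibitor of vesicle transport, with 0.09 and -0.47. With the sign as deposited, 10 of the 19 were above 0 by the mean and 2 in both replicates. Over the 5 times, from 0.5 to 24 hours, the list's median was 0.06, 0.63, 0.77, 0.87 and 0.52.

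Of 81 Group-II features, 13 were above 0 (against 36.7% of all features) and 31 (38.3%, against 35.3%) below 0 in both replicates at 2 hours. By the mean, 3 (3.7%) were lower by 1.8-fold, near the 2.57% of all features, and without the centring 0 were. These 3 were ATP sulfurylase, an SF21-like protein at -0.99 and CIPK2, a protein kinase driven by calcium sensors, at -0.93. In the same order of times, the median of this list was -0.46, -0.15, 0.58, 0.95 and 0.65. None of the features of either group passed limma's test at 2 hours, and at an unadjusted p of 0.05 4 of Group-I were higher (21.1%, against 9.94% of all features) and 4 of Group-II lower (4.94%, against 5.89%).

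The other 19 lists were drawn up by gene symbol. Their members are described by counts and medians beside those of all features. Of all features, 36.7% were above and 35.3% below 0 in both replicates. By the mean, 6.92% of all features were higher and 2.57% lower by 1.8-fold. No member of any list passed limma's test.

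Defence genes were the list with the lowest median, -0.53, with -0.36 in replicate 1 and -0.70 in replicate 2. With the sign as deposited, 10 of its 15 features were above 0 by the mean. With the sign turned, 12 of the 15 were below and 1 above 0 in both replicates. By the mean, 4 of the 15 were lower by 1.8-fold, against 2.57% of all features. Besides LSD1, these were SGT1, a co-chaperone of immune receptors, with -0.51 and -1.41, PBZ1, a pathogenesis-related protein of the PR10 family, with -0.36 and -1.41, and HIRL1, of the hypersensitive-induced reaction family, with -0.93 and -0.81. In SGT1 and PBZ1 the low mean came largely from replicate 2. The other feature of HIRL1 had only -0.58 and -0.02, and HIRL2 stood on the other side with 0.80 and 0.46.

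Genes of photosynthesis and chlorophyll synthesis had a median of -0.49, with -0.17 in replicate 1 and -0.63 in replicate 2. In both replicates 6 of 10 features were below 0 and 2 above, a feature of HEMB and PETE, with 0.10 and 0.54. Without the centring this list's median relative to all features was -0.50, and all features had a median of 0.31. RCABP69, a chlorophyll-binding protein of the light-harvesting complex, had -0.23 and -1.11, and GLO4, a glycolate oxidase of photorespiration, -0.33 and -1.01. The feature of HEMB named above was the only one of this list past 1.8-fold.

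The cold and dehydration list had 6 of 8 features below 0 in both replicates and a median of -0.30. Without the centring the list's median relative to all features was -0.31, and all features had a median of 0.31. The list itself was then near 0. DREB2B, a transcription factor of dehydration and heat responses, had -0.40 and -0.90, and LTI6B, a small membrane protein named for low temperature induction, -1.01 and -0.48. DI19-4 was the one member above 0 in both, with 0.74 and 0.52. None reached 1.8-fold by the mean.

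Ubiquitin and proteasome genes had no feature above 0 in both replicates and 7 of 14 below, with a median of -0.26. Without the centring this list's median relative to all features was -0.27, and all features had a median of 0.31. The ubiquitin-conjugating enzyme UBC5A had -0.41 and -1.20, and RUB, a ubiquitin-like modifier, -0.45 and -0.92. Among 25 features of reactive oxygen and thiol redox, 10 were below and 6 above 0 in both, with a median of -0.14. Ascorbate peroxidases remove hydrogen peroxide, and their features were not on one side. APX1 had -0.23 and -1.28 and APX2 -0.42 and -1.42, again with the lower value in replicate 2. APX7 had -0.07 and -0.33, and APX3 was above 0 in both, with 0.07 and 0.46. The peroxiredoxin PRXIIF had 0.62 and 0.76.

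Hormone lists held members on both sides. Of 12 jasmonate features, 5 were above and 5 below 0 in both replicates, with a median of 0.04. NINJA1, an adaptor that represses jasmonate responses, had 1.12 and 0.59, one feature of the receptor COI2 0.90 and 0.99, and COI1B 0.63 and 0.76, while JAR1 lay below control. The 13 abscisic acid features had a median of 0.04. Among them ZEP1, the zeaxanthin epoxidase that makes an abscisic acid precursor, had a mean of 1.11, with 0.71 in replicate 1, and the phosphatase PP2C45 -0.54 and -0.98. Of 16 auxin features, with a median of 0.06, ARF3 with 0.82 and 0.91 was the only one past 1.8-fold by the mean, and IAA19, a repressor of auxin responses, had -0.27 and -0.84. The gibberellin list held 2 features, with a median of 0.74 that rests on GID1, and the ethylene list 4, of which 3 were below 0 in both replicates (median -0.44).

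Genes of the cytoskeleton had a median of 0.22, with 9 of 18 features above and 4 below 0 in both. The kinesin motor KIN12C had 0.89 and 1.09 and the actin ACT3 1.21 and 0.65. ACT1 had 1.25 and 0.32, with the higher value in replicate 1. Among 38 signalling features (median -0.14) 19 were below and 10 above 0 in both, with CIPK2 at -0.85 and -1.02 and CIPK5, measured by 1 spot per slide, at -1.26 and -0.74. The mitogen-activated kinase MPK16 was above control in both, with a mean of 0.96.

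Of 31 features for sucrose, starch and glycolysis, 11 were above and 13 below 0 in both replicates, and the median was -0.03. Besides OsSPS3F, the feature of PDC named first had 0.88 and 1.53, and HXK5, a hexokinase, had 0.67 and 1.05, while a feature of a second locus of that name had -0.32 and -0.09. In the clock and photoperiod list, with 8 features and a median of 0.16, Ehd3 had 0.81 and 1.21, CCA1 0.58 and 0.31, and the pseudo-response regulators PRR73 and PRR95, which repress CCA1 in the clock of Arabidopsis, -0.44 and -0.88, and -0.22 and -0.62. Among 37 features for phenylpropanoids and the cell wall, BGLU27 was the highest and 13 were above and 11 below 0 in both (median -0.05).

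The remaining lists lay within 0.10 of 0 by their medians, namely transporters and aquaporins (0.10, 19 features), translation (0.00, 18), chromatin, RNA and transcription factors (-0.01, 23) and chaperones (-0.05, 11). Among them the boron and silicon channel family member NIP3-1 had -1.09 and -0.73, the RNA-binding protein RBP-208 1.15 and 0.86, and MYBS3, a MYB factor of sugar signalling, -0.48 and -0.92. Of the 21 lists, 9 had a median above 0, and 19 did with the sign as deposited. Without the centring 18 did, because all features moved up alike, to a median of 0.31.

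**Figure D5:**
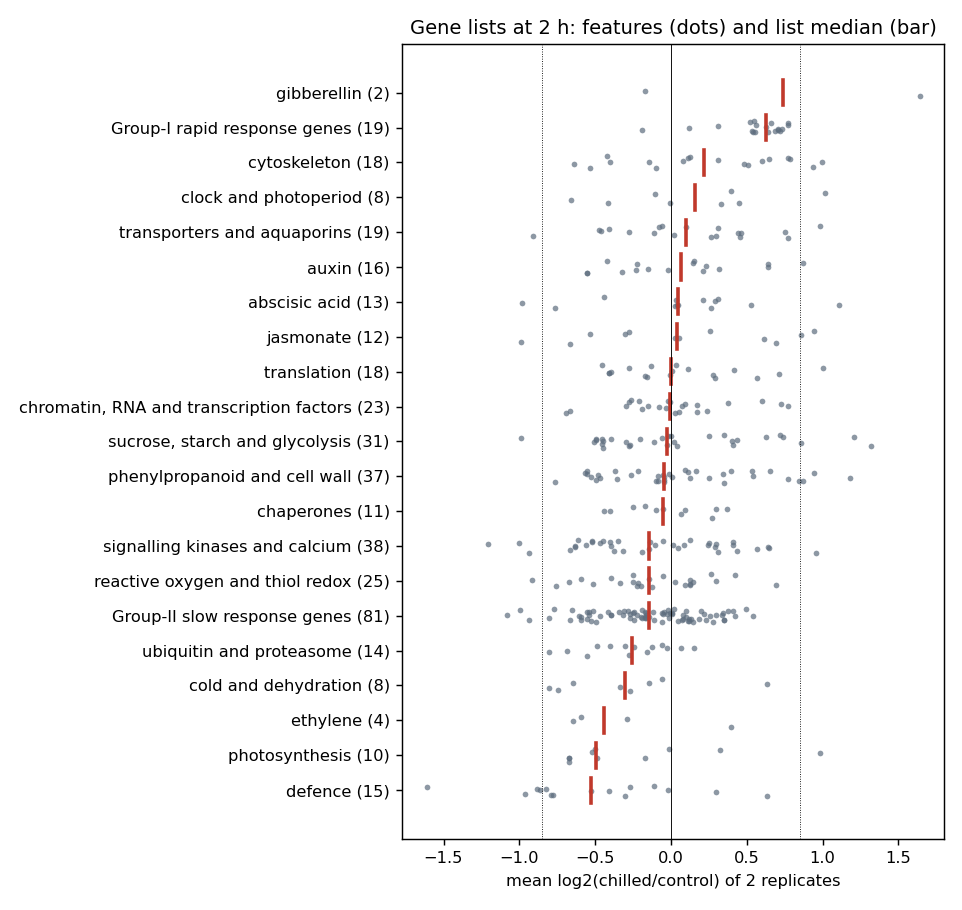
Mean log2 ratio of chilled over control shoots at 2 hours for the features of 21 gene lists (dots, features; red bar, list median; number of features in parentheses; dotted lines, 1.8-fold). Defence genes have the lowest median (-0.53), and the 19 Group-I features, which the study chose on these slides, have one of 0.63.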

How the data were processed

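Transcripts of chilled and control rice seedlings were measured on 2-colour cDNA slides, with 2 biological replicates per time and 2 spot sets per slide. The values are log2 ratios of chilled (532 nm channel) over control (635 nm channel) as deposited by the authors. Their methods state ratios of median intensities after background subtraction, scaled to a mean of 1 over the features. The mean ratio of the deposited columns was 13.8 and 14.5 in replicate 2 of 2 hours, and 1.09 to 1.50 in the other 18. Each of the replicate 2 columns held 1 value at or above 10, of 16.25 and 16.33 on the log2 scale. Such a value dominates a mean of ratios, so these means do not describe the slide as a whole. The medians of these columns were -0.42 and -0.63. Intensities were not used here, so signal over background is unknown, and the number of slides limits the precision. The genome build behind the gene assignment is not given in the sources used here.

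The sign of both replicate 2 columns at 2 hours was turned, every column's median was set to 0, and the 2 spots of a slide were averaged. One limma model (R 4.3.3, limma 3.58.1), tested on simulated data, was fitted to the 5926 features measured in all 10 samples, with 1 mean per time and Benjamini-Hochberg adjustment at 0.05. Counts were made with Python 3.11.15, pandas 2.3.3 and numpy 2.4.6. One column at 6 hours has conflicting labels and was kept at 6 hours.

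Members and lists were chosen with earlier results of these data known. Named features were up to 10 in each direction with a gene name or study annotation, one sign in 4 spots and 1.8-fold in each replicate, ranked by the smaller replicate, the genes the study measured or named, all Group-I features and up to 4 per list. In all, 112 features were named by this rule, and the text prints part of them. The lists came from gene symbols and synonyms, and 64 matches were left out because the symbol belonged to another kind of gene. The study's catalase gene was not matched. Promoter motifs were not analysed here. The alternatives were another sign, centring, scaling, spot set, fold rule or mean, other limma fits, and each replicate left out.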

Additional observations from a re-analysis of the deposited data

Results flagged for a closer look

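The effect of chilling at 2 hours differed from that at 12 hours in 2 features by limma's test of the difference itself, with adjusted p of 0.0445 for each. LOC4324604 had -0.60 and -0.76 at 2 hours, against 2.38 and 2.36 at 12 hours, a difference of -3.04. A feature with no gene listed had replicate values of 2.64 and 0.71 at 2 hours, against -2.11 and -3.91 at 12 hours, a difference of 4.69, and the 2 spots of replicate 1 at 2 hours read 5.85 and -0.57. When 1 sample was left out, each call held in 3 of 10 fits, with adjusted p between 0.0458 and 0.35 for LOC4324604 and between 0.0109 and 0.188 for the feature with no gene listed. Both calls were lost with the sign as deposited (adjusted p 0.858 for each). That of LOC4324604 was also lost with the replicate block (0.137), without centring (0.0855), with either spot set alone (0.146 and 0.0612) and without 0.5 hours (0.106), and that of the other feature with columns scaled to a common spread (0.16), robust estimation (0.0697) and without 0.5 hours (0.192).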

How the results depend on the processing

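Only 2 slides stand behind each value, and the sign of replicate 2 decides most results: with the sign as deposited the rank correlation of the replicates is -0.57 in place of 0.57. By the mean rule, the counts higher and lower (417 and 155) were 53 and 86 with the sign as deposited, 1019 and 73 without centring, 918 and 506 at 1.5-fold and, for higher, 220 at 2-fold. In each replicate (150 and 70) they were 11 and 5, 311 and 25, 458 and 164, and 70 and 45. Leaving out 1 replicate gave 251 to 802 higher and 123 to 506 lower under both rules. By limma at 2 hours, 15 features rose without centring, 1 with columns scaled to a common spread, 1 without the column of conflicting labels, and 7 rose and 32 fell with spot sets kept apart. Leaving out 1 sample gave 0 to 24 that rose and 0 to 3 that fell, with the 24 reached without replicate 1. The differences from 0.5 hours gave 0 to 13 higher and 0 to 3 lower without 1 sample (1 lower with spot set T1 alone), those from 6 hours 0 to 16 and 0 to 1 (1 lower with spot sets apart), and those from 24 hours 0 to 15 and 0 to 2 (1 lower with scaling, robust estimation or complete columns, 7 with spot sets apart). Against 12 hours (1 higher and 1 lower), leaving out 1 sample gave 0 to 13 higher and 0 to 1 lower. The 13 were reached without replicate 1 of 2 hours, where neither of the original 2 features passed. The count higher was 0 with the sign as deposited, scaling, without 0.5 hours and robust estimation. It was also 0 with either spot set alone, spot sets apart and complete columns, but the feature called was not among those fitted there. The count lower was 0 with the sign as deposited, no centring, either spot set alone, without 0.5 hours and the replicate block, and 17 with spot sets apart. A time left with 1 sample was assumed to vary like the others. Leaving out replicates of other times was chosen after seeing the data. Causes were not tested.

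The replicate numbers were not taken to pair the slides. Deviations of same-numbered slides correlated between -0.302 and 0.336, and among 6, 12 and 24 hours between 0.238 and 0.336. These values do not settle whether the numbers pair the slides. In limma the replicate block lost the lower call against 12 hours (1 to 0), kept the higher one (adjusted p 0.0128) and changed no other count. Lists with a median above 0 (9 of 21) were 19 with the sign as deposited, 18 without centring and 8 to 14 without 1 replicate. With the sign as deposited the means of 72 of 112 named features changed side. Among the 24 past 1.8-fold in each replicate, 13 did: BGLU27 -0.042, COI2 -0.048, HEMB -0.027, KIN12C -0.10, MPK16 -0.046, MTP8 -0.20, PDC -0.33, PRMT10 -0.10, osRAD23 -0.016, CML1 0.24, JAR1 0.10, LSD1 0.25 and OsPP2C44 0.11.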
